A study of Mus musculus with 12 samples.

Results

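In 2 mouse erythroid cell lines, 1423 autosomal DNase-hypersensitive regions had a peak in every library of 3 groups and no listed peak in any library of the fourth, asynchronous G1E cells. They were chosen by presence and absence in the peak lists. Peaks of 12 replicate lists on chromosomes 1 to 19 were merged where they shared at least 1 bp, and a region was kept when all 9 lists of the other 3 groups had a peak in it and none of the 3 asynchronous G1E lists did. Chromosome 2 from position 156000001 on was left out. The 1423 regions were 0.552% of the 257623 merged regions, and 6.89% of the 20663 regions that had a peak in all 9 lists of the other 3 groups. Because the rule selected on presence and absence, the gap in asynchronous G1E is not a finding, and no value below tests it.

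DNase I cuts chromatin where nucleosomes are displaced or loosely held, so a DNase-hypersensitive region marks DNA that is open to proteins, commonly a promoter or an enhancer. GATA1 is a zinc finger transcription factor required for red cell maturation that binds at many enhancers of erythroid genes. In mitosis chromosomes condense, most transcription stops and many transcription factors leave the chromatin, while much of the accessible DNA stays open to nucleases.

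G1E is a line made by disrupting GATA-1 in embryonic stem cells of mouse strain 129, and its cells are labelled as negative for the red cell surface marker Ter119 and as either negative or positive for CD71, the transferrin receptor. G1E-ER4 is a subline of G1E in which GATA-1 function can be induced with estradiol, labelled as positive for both markers. The G1E-ER4 cells had 100 nM estradiol for 22 h. Mitotic cells of either line had nocodazole, which blocks the mitotic spindle, at 200 ng/ml for 7 h and were sorted for phosphorylated serine 10 of histone H3. All cells were fixed with formaldehyde before digestion, and each of the 4 groups had 3 libraries. Asynchronous G1E was thus the only group labelled with neither estradiol nor nocodazole. What sets it apart from both G1E-ER4 groups is the line, GATA-1 and estradiol together, and what sets it apart from mitotic G1E is nocodazole, sorting and stage together, so these cannot be told apart within each comparison. The labels do not say that the 3 libraries of a group came from separate cultures, and 3 DNase I concentrations per condition are described, so the p-values here measure only the spread between these libraries, which may be technical. The labels do not tie a library to a concentration.

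Each list held exactly 100000 peaks, the highest by the authors' signal, so that "no peak" means no peak within the upper 100000 of that library. Values are given as ranks within a list, with 1 for the highest signal, and a region takes the rank of its best peak. Lists numbered 1 had the widest peaks of their group, with medians of 760 bp in asynchronous G1E, 942 bp in mitotic G1E, 1192 bp in asynchronous G1E-ER4 and 922 bp in mitotic G1E-ER4, against 356 to 776 bp in the other 8 lists. Read depth is unknown from peak lists. Positions are on mouse build mm9. No annotation of that build was used, so the regions are given by position, without gene names.

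The 8 best-placed members, by mean rank over the 9 lists, lay on chromosomes 2, 11, 12, 17 and 19, with 4 of them on chromosome 11. All were several kilobases wide, and none came near the top of all 9 lists. The first, a region of 10525 bp at chr2:25941605-25952129, ranked 17332, 15213 and 28029 in mitotic G1E. In asynchronous G1E-ER4 its ranks were 13120, 9924 and 8330, and in mitotic G1E-ER4 13427, 14890 and 9104. All 6 G1E-ER4 lists placed it higher than any of the 3 mitotic G1E lists did. The nearest listed peaks of asynchronous G1E lay 17576, 17535 and 2931 bp away in its 3 lists.

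The second, a region of 11987 bp at chr19:4853935-4865921, showed the widest separation by line among these 8. It ranked 16234, 33104 and 40545 in mitotic G1E. Its ranks were 9299, 6085 and 6221 in asynchronous G1E-ER4, and 11654, 8132 and 5822 in mitotic G1E-ER4. The G1E-ER4 ranks of both stages overlapped each other and lay wholly above those of mitotic G1E. The nearest asynchronous G1E peak was 6118, 6142 and 6090 bp away, at almost the same distance in every list.

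The third, at chr11:97359001-97365275, had ranks of 18174, 27494 and 20451 in mitotic G1E. It ranked 13236, 12432 and 15748 in asynchronous G1E-ER4, and 7435, 10169 and 16548 in mitotic G1E-ER4. Here too every G1E-ER4 list placed the region above every mitotic G1E list, and the G1E-ER4 groups overlapped.

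The other 5 had a different order. At chr11:53878700-53888286 the ranks were 10173, 17350 and 13116 in mitotic G1E, 14662, 23696 and 37659 in asynchronous G1E-ER4, and 5918, 10989 and 9927 in mitotic G1E-ER4. At chr12:3802102-3812015 they were 10906, 13503 and 24691, then 14718, 24325 and 27979, then 7828, 8942 and 11741 in the same group order. Asynchronous G1E-ER4 was placed lowest on average at both regions, and its 3 ranks did not overlap those of mitotic G1E-ER4.

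A region of 8610 bp at chr11:5963031-5971640 ranked 27087, 12575 and 10515 in mitotic G1E, 14666, 23946 and 26478 in asynchronous G1E-ER4, and 8111, 10700 and 14333 in mitotic G1E-ER4. At chr17:46588435-46594044 the mitotic G1E-ER4 lists gave closely similar ranks of 7337, 8022 and 7718. There mitotic G1E ranked 13643, 16922 and 16442, and asynchronous G1E-ER4 13623, 27340 and 43277, the widest spread of any group at this region. That region was also close to an asynchronous G1E peak in 1 list, 548 bp away, with none within 20 kb in the other 2 (24837 and 29605 bp). The eighth, at chr11:95001727-95008568, ranked 17580, 13909 and 15299 in mitotic G1E, 15353, 22773 and 40818 in asynchronous G1E-ER4, and 6885, 11005 and 11924 in mitotic G1E-ER4. Mitotic G1E-ER4 had the best mean rank in all of these 5, as it did in the third member.

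**Figure D1:**
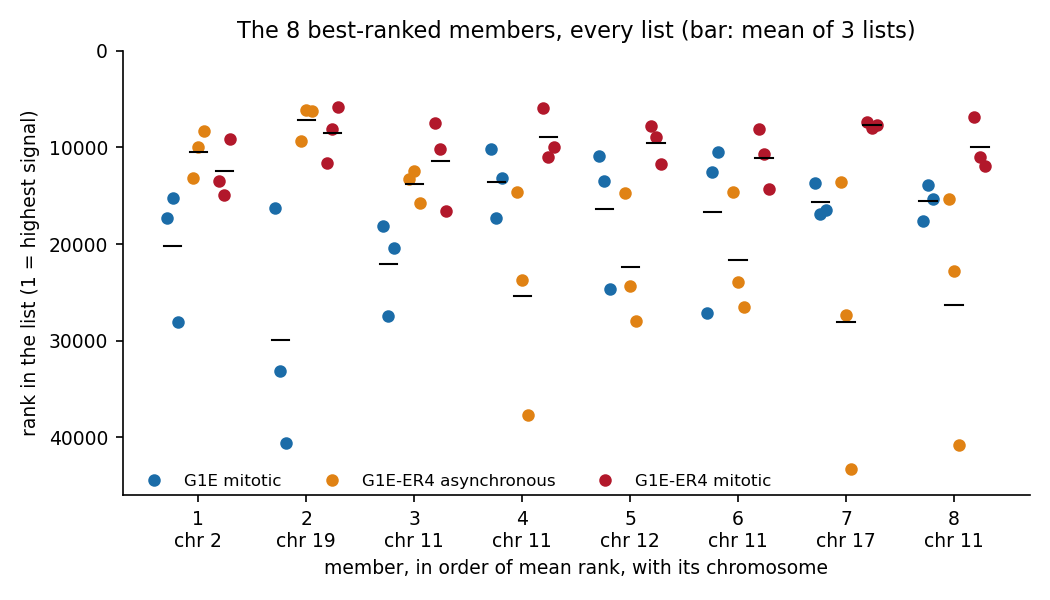
Ranks of the 8 best-placed members in each of the 9 lists (vertical axis, 1 is the highest signal, drawn upward), by group, with a bar at the mean of the 3 lists. In the first 3 members mitotic G1E (blue) lies lowest, and in the other 5 the mean of asynchronous G1E-ER4 (orange) lies lowest.

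Most members sat lower in the lists than these 8. Over all 1423, the mean rank over 9 lists ran from 14374 to 74622, with a median of 39825. Only 186 members (13.1%) were within the upper 50000 of all 9 lists, and none was within the upper 20000 of all 9. At least 1 list placed 185 members in its upper 10000, and at least 1 list placed 325 members beyond rank 90000. The median signal of a member's best peak was 1.19 to 1.69 times the lowest signal of its list. Every list placed the members far below the whole class of 9-list regions, whose median ranks were 11927 to 14870. Of that class, 76.4% also had a peak in all 3 asynchronous G1E lists. Regions with a peak in only 1 or 2 of those 3 lists had median mean ranks of 36998 and 32589, nearer that of the members. The part of the rule itself in this placement was not tested.

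By list, the median rank of the members was 38869, 31431 and 36765 in mitotic G1E. It was 28680, 47804 and 54796 in asynchronous G1E-ER4, and 20007, 28498 and 35005 in mitotic G1E-ER4. The means of these medians were 35688 ± 3834 for mitotic G1E, 43760 ± 13520 for asynchronous G1E-ER4 and 27837 ± 7521 for mitotic G1E-ER4 (SD, n = 3 each). Mitotic G1E-ER4 had the best mean and asynchronous G1E-ER4 the poorest, but the list numbered 1 of asynchronous G1E-ER4 was placed above list 3 of mitotic G1E-ER4. The groups' means on the log2 scale spanned 0.64, and this was not larger than the spread between lists (exact permutation test over all 280 groupings of the 9 lists, two-sided, p = 0.207, adjusted p = 0.327 over 3 tests, n = 3 lists per group). The smallest p that this test allows is 0.00357. Without the first list of asynchronous G1E-ER4 the span was 0.92 and the exact permutation p was 0.025 (adjusted p = 0.0375), so that 1 list decides this call.

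**Figure D2:**
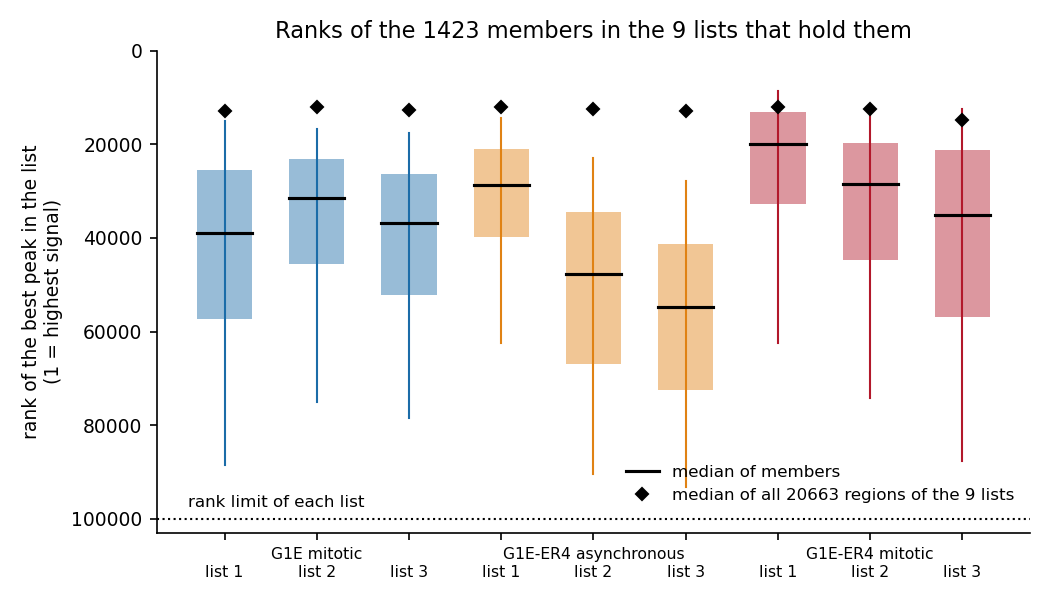
Rank of the members' best peak in each of the 9 lists (vertical axis, 1 is the highest signal). Boxes span the quartiles, thin lines the 5th to 95th percentile, bars the median of the 1423 members and diamonds the median of all 20663 regions of the 9 lists; the members' medians, 20007 to 54796, all lie below the diamonds, 11927 to 14870.

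Mitotic and asynchronous G1E-ER4 cells share line, GATA-1 and estradiol, and differ in nocodazole, sorting and stage. The comparison was fitted over all 20663 regions of the 9 lists, since ranks in these lists were not part of the rule beyond presence. The median log2 rank difference, mitotic minus asynchronous, was -0.63 over the members and -0.05 over all regions, where a value below 0 means that mitotic cells placed the region higher. It was below 0 in 1215 members (85.4%) and in 52.0% of all regions. The members share the same lists, so these percentages do not count independent observations. The permutation test on the list medians over the 3 groups, given above, found no difference beyond the spread between lists. All regions were also placed far higher than the members, so the background is not matched on rank. All 3 mitotic lists placed the region above all 3 asynchronous lists in 272 members (19.1%), against 14.5% of all regions. The opposite order was found in 18 members (1.26%), against 14.2% of all regions. On the deposited signal, as log2 centred on the median of each list, the members were also higher in mitotic cells, by a median of 0.13 and in 1079 of 1423 (75.8%), while the median over all regions was -0.49, so that the background depends on the scale.

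Region by region these shifts mostly stayed within the spread of 3 lists. In limma with Benjamini-Hochberg adjustment at 0.05, 1 member ranked higher in mitotic than in asynchronous G1E-ER4, where 24 of all regions (0.116%) did. No member ranked lower, where 37 of all regions (0.179%) did. At an unadjusted p under 0.05, 292 members were higher (20.5%, against 10.7% of all regions) and 9 lower (0.632%, against 9.88%). The excess of higher members depended on the measure and on single lists. With mean rank over a region's peaks, 56 were higher (3.94%, against 4.12%) and 6 lower (0.422%, against 5.96%). On log2 signal 20 were higher (1.41%, against 0.876%) and 21 lower (1.48%, against 43.8%). Without asynchronous G1E-ER4 list 1, 2 or 3, the higher share was 33.3%, 7.47% or 6.2%, against 12.4%, 6.19% or 5.73%. The member called, a region at chr1:71672184-71675233, ranked 18750, 18186 and 15602 in mitotic G1E-ER4 and 56898, 68854 and 96818 in asynchronous G1E-ER4. The groups did not overlap, and the difference was -2.05 ± 0.39 on the log2 scale (SE, limma adjusted p = 0.0485). Mitotic G1E ranked it 31754, 23974 and 34896, between them. On log2 signal, limma called 4 members higher and 14 lower, against 51 (0.247%) and 7444 (36%) of all regions. No member was called in either direction when 1 of the other 8 lists was left out, and without the first list of mitotic G1E 13 members were called higher (0.779%, against 1.14% of all regions) and 3 lower (0.18%, against 2.27%).

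Mitotic cells of both lines share nocodazole and sorting, and differ in line, GATA-1 and estradiol. The comparison uses the same mitotic G1E-ER4 lists as the one between stages, so the pair of results is not independent. The median log2 rank difference, mitotic G1E-ER4 minus mitotic G1E, was -0.34 over the members and 0.03 over all regions, and 1011 members (71.0%) were below 0 against 48.3% of all regions. Here too the members share the same lists and are not independent observations, and the background is not matched on rank. On log2 signal 995 members (69.9%) were higher in mitotic G1E-ER4, against 48.3% of all regions. All 3 mitotic G1E-ER4 lists placed the region above all 3 mitotic G1E lists in 234 members (16.4%), against 8.14% of all regions, and below them in 34 members (2.39%), against 8.64%.

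In limma 1 member passed as higher in mitotic G1E-ER4 than in mitotic G1E (0.0678% of all regions, 14, did), and 0 passed as lower (0.411%, 85). At an unadjusted p under 0.05, 176 members were higher (12.4%, against 5.15% of all regions) and 14 lower (0.984%, against 7.25%). With mean rank over a region's peaks, 60 were higher (4.22%, against 2.75%) and 12 lower (0.843%, against 4.28%). On log2 signal 40 were higher (2.81%, against 2.03%) and 1 lower (0.0703%, against 5.33%). The region called, at chr8:12053448-12056526, ranked 5906, 10685 and 17084 in mitotic G1E-ER4 and 49866, 51131 and 44990 in mitotic G1E. Its difference was -2.24 ± 0.45 on the log2 scale (SE, limma adjusted p = 0.0494), and its ranks in asynchronous G1E-ER4, 28719, 47297 and 43318, were also all poorer than those of mitotic G1E-ER4. With the replicate number as a block, an alternative to this unpaired fit, 2 members were called higher (0.141%, against 0.145% of all regions) and 0 lower (against 0.89%). Again no member was called when 1 of the other 8 lists was left out, and 5 were called higher (0.3%, against 0.184% of all regions) and 0 lower (against 1.61%) without the first list of mitotic G1E.

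Merged over all 12 lists, the members were broad. Their median width was 4949 bp, with quartiles of 3288 and 6927.5 bp and a range from 690 to 24666 bp, and together they covered 7.75 Mb. A width of at least 4 kb was reached by 923 of them (64.9%). These widths depended on which lists were merged. The median was 4059 bp without the first list of asynchronous G1E-ER4. It was 2654 bp over the 3445 members found without any list numbered 1. The comparisons of width that follow use all 12 lists and were not repeated without those lists. Regions of the same 9 lists that also had a peak in 1 or 2 asynchronous G1E lists were about as wide, with medians of 4935.5 bp over 1698 regions and 5146 bp over 1761. Those with a peak in all 12 lists, 15781 regions, had a median of 3313 bp and also far better ranks, with a median mean rank of 10415. The classes with a peak in 1 or 2 asynchronous G1E lists had median mean ranks of 36998 and 32589, nearer the 39825 of the members. Members made up 0.596% of the 9-list regions under 1 kb, 10.8% of those from 4 to 8 kb, and 7.39% (231 of 3125) of those of 8 kb and over. The better-placed members were the wider ones. With members split by mean rank into 4 classes of equal size, the median was 7115 bp in the best-placed class and 3461.5 bp in the last. A region takes the rank of its best peak, and a wider region can hold more peaks, so the measure itself links width and rank. The same split was not made for the other 9-list regions.

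**Figure D3:**
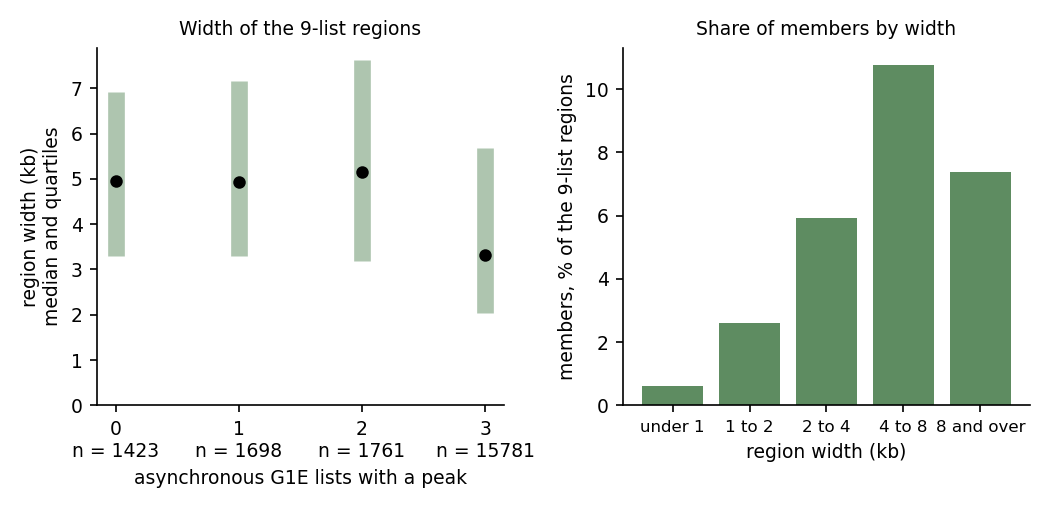
Left, width in kb (median as a point, quartiles as a bar) of the regions in all 9 lists by the number of asynchronous G1E lists with a peak there, where 0 are the members. Right, the percentage of 9-list regions that are members by width class; it is 0.596% under 1 kb, highest at 10.8% between 4 and 8 kb, and 7.39% at 8 kb and over.

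How the width was made up differed strongly between lists, from 1 broad peak to several short ones. In the first list of asynchronous G1E-ER4 the best peak had a median width of 3893 bp and peaks covered 95.2% of a member, with more than 1 peak in 25.8% of members. In the third list of that group the best peak had a median of 698 bp, peaks covered 24.2%, and 50.6% of members held more than 1. The second list of mitotic G1E-ER4 split members most often, with more than 1 peak in 72.5%. The group means of the median peak width were 1273 ± 308 bp in mitotic G1E, 1799 ± 1815 bp in asynchronous G1E-ER4 and 1473 ± 1025 bp in mitotic G1E-ER4 (SD, n = 3 each). They did not differ beyond that spread (exact permutation test, two-sided, p = 0.986, adjusted p = 0.986).

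The widest member, 24666 bp at chr6:91734563-91759228, held 5 to 14 peaks in each list. Its ranks were 12912, 23344 and 29394 in mitotic G1E, 21246, 25442 and 45610 in asynchronous G1E-ER4, and 14093, 15020 and 17135 in mitotic G1E-ER4. Asynchronous G1E-ER4 lay wholly below mitotic G1E-ER4 there. The next, of 21166 bp and 21006 bp, were neighbours near the end of chromosome 7, at chr7:149746910-149768075 and chr7:149835550-149856555, with 67474 bp between them. The first of this pair ranked 19076, 22098 and 20505 in mitotic G1E, 27660, 31901 and 37348 in asynchronous G1E-ER4, and 20556, 13935 and 28541 in mitotic G1E-ER4. The second ranked 18289, 15012 and 35902, then 14014, 30433 and 34355, then 8099, 14497 and 16621. The nearest asynchronous G1E peaks were 10279 to 14270 bp from the first and 1324 to 1534 bp from the second.

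The narrowest members were single peaks in all 9 lists. The region of 690 bp at chr12:102225384-102226073 ranked 34874, 32542 and 33193 in mitotic G1E, 69110, 63071 and 40842 in asynchronous G1E-ER4, and 88876, 30080 and 87901 in mitotic G1E-ER4. It was best placed in mitotic G1E on average, but its second mitotic G1E-ER4 list ranked it higher still. All 3 asynchronous G1E lists had a peak within 484 bp, and the pooled asynchronous G1E list had a peak in it. The region of 783 bp at chr1:23976808-23977590 ranked from 18380 to 57426 over the 9 lists, with the groups overlapping. The region of 818 bp at chr9:114947733-114948550 ranked 32073, 29588 and 33390 in mitotic G1E-ER4, above every other list (57767 to 97132).

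Whether the lists marked the same bases within a member was asked next. A base covered by a peak of all 9 lists existed in 628 members (44.1%), with a median of 443.5 such bases, and in the other 795 the 9 lists met only through overlapping neighbours. Within a group the 3 lists shared a base in 1262 members (88.7%) for mitotic G1E, 1135 (79.8%) for asynchronous G1E-ER4 and 1296 (91.1%) for mitotic G1E-ER4. These shares were not computed for the other 9-list regions, so they cannot be called particular to the members. All of the 8 best-placed members had a base common to 9 lists, of 277 to 3511 bp.

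The summits of the best peaks were compared between pairs of lists, for the members only. The median distance over the members was 725 bp on average for the 9 pairs of lists within a group and 760 bp for the 27 pairs across groups. Among the pairs within a group, those of mitotic G1E-ER4 were closest on average, at 580 to 661 bp. Those of asynchronous G1E-ER4 were farthest, at 759 to 956 bp. Pairs across groups ran from 570 to 977 bp. The excess of 34.9 bp across groups did not exceed the spread (exact permutation test, two-sided, p = 0.218, adjusted p = 0.327). Without the first list of asynchronous G1E-ER4 the excess was 73.1 bp and the exact permutation p was 0.00357, the smallest possible, adjusted 0.0107.

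Members were unevenly spread over the chromosomes. As a share of the 9-list regions they ran from 12.8% on chromosome 15 (108 members), 10.3% on chromosome 11 (186) and 10.2% on chromosome 7 (151) down to 3.02% on chromosome 1 (67), 1.85% on chromosome 12 (34) and 0.436% on chromosome 4 (7 of 1605). Chromosome X, outside the rule, had 184 regions in the 9 lists, of which 178 also had a peak in all 3 asynchronous G1E lists and none would be a member. Chromosome 12 held 10.8%, 14.6% and 13.6% of the autosomal peaks of the 3 asynchronous G1E lists, above its 5.11% to 10.6% in the other 9 lists. Chromosome 1 held 10.4%, 16.5% and 14.9%, against 9.69% to 14.1%.

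On chromosome 4 the first list of each G1E group stood apart, with 13.8% of the peaks in asynchronous G1E and 15.9% in mitotic G1E, against 4.71% to 7.51% in the other 10 lists. The part of these peak shares in the members' distribution was not tested. Without the first asynchronous G1E list the rule gave 2447 members, 289 of them on chromosome 4. On chromosome 15, where members were most frequent, asynchronous G1E lists held 3.19%, 2.76% and 2.95% of their peaks and the other 9 lists 3.26% to 4.20%.

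**Figure D4:**
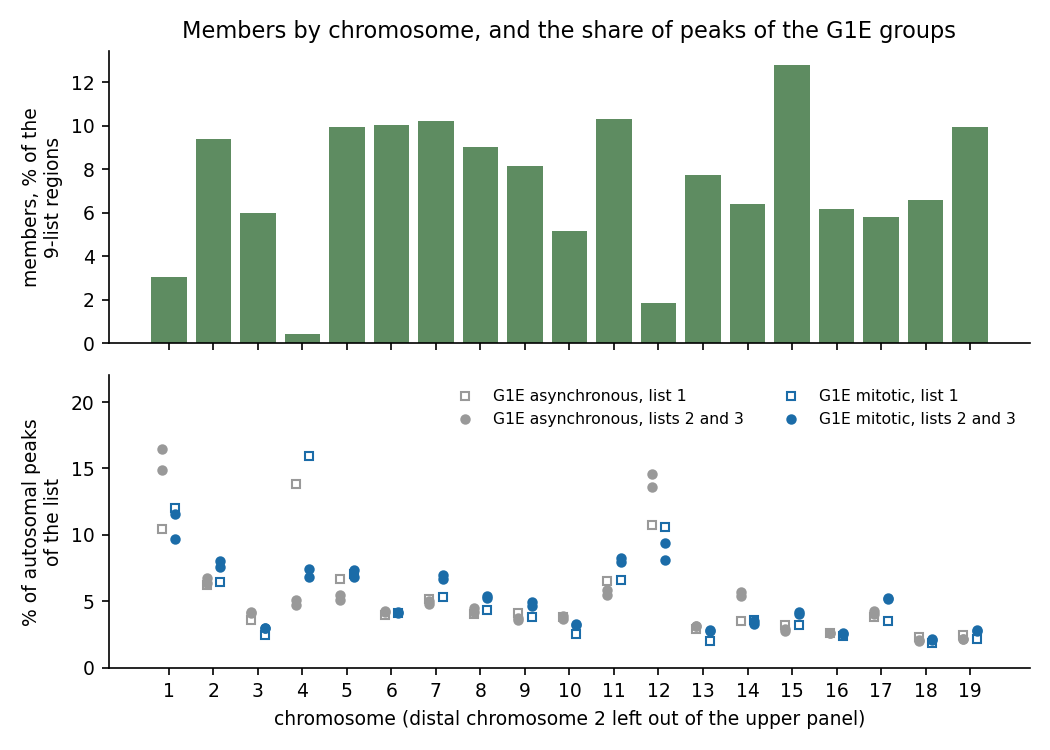
Upper panel, members as a percentage of the regions found in all 9 lists, by chromosome. Lower panel, percentage of a list's autosomal peaks on each chromosome for the 3 asynchronous and 3 mitotic G1E lists; the open squares of both first lists stand at 13.8% and 15.9% on chromosome 4, where members are 0.436%.

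Members also lay near each other. For 310 of the 1423 (21.8%) the next 9-list region along the chromosome was itself a member, beside the 6.89% of 9-list regions that are members. Chains with at most 50 kb between successive members held 582 members (40.9%). The longest chain, singled out after its length was seen, had 7 members within chr5:113483133-113656662, of 2336 to 18039 bp, with mean ranks from 22174 to 64603. A chain of 6 within chr8:124161492-124311042 had widths of 2220 to 8969 bp and mean ranks from 27293 to 57821. A chain of 5 on chromosome 11, chr11:95001727-95088124, began with the eighth of the best-placed members. Neighbouring members can share broad enrichment, so they are not independent of each other.

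Asynchronous G1E cells had listed peaks around the members at some distance. The nearest was at a median of 8260, 9178 and 8115 bp in the 3 lists, and within 1 kb for 12.1%, 7.87% and 8.43% of members, or 9.46% ± 2.29 (SD, n = 3). In at least 1 list a peak lay within 1 kb of 257 members, and for 163 (11.5%) no list had one within 20 kb. For the 410 regions missing only from mitotic G1E-ER4, chosen by the mirror of the rule, that group's lists had a peak within 1 kb of 14.2% ± 3.90, at a median distance of 4402 to 4579 bp. The mirror rules gave 0.159% of merged regions for mitotic G1E-ER4, 0.0113% (29 regions) for mitotic G1E and 0.00427% (11 regions) for asynchronous G1E-ER4, against 0.552% for asynchronous G1E. Asynchronous G1E lists 2 and 3 had the narrowest peaks of all lists, with medians of 356 and 415 bp. They also covered the least sequence, 45.1 and 57.5 Mb, against 64.9 to 181 Mb in the other lists. The part of peak width and coverage in these counts was not tested.

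The lists bear in part on whether asynchronous G1E libraries had weaker peaks there. Peak names carry a number that rises along the chromosome and skips values, so the number of skipped values between 2 listed peaks counts numbered peaks that are not in the list. The listed peaks flanking a member were separated by no skipped number for 2, 84 and 23 of the 1423 members in the 3 asynchronous G1E lists, and for only 1 member in all 3. Over all gaps between listed peaks, of any length, 35.9%, 43.6% and 38.3% had no skipped number. These were not matched in length to the gaps around members, so the shares cannot be set against each other. Around members the median number skipped was 16, 5 and 7, over gaps with median lengths of 47841, 51175 and 47265 bp. In gaps of 10 to 200 kb, numbers were skipped at 3.13, 0.871 and 1.47 per 10 kb where the gap held members, against 2.16, 0.910 and 1.24 over all such gaps. The rate around members was thus 1.45, 0.957 and 1.19 times that of all such gaps. For the 410 regions missing only from mitotic G1E-ER4, the same ratio in the 3 lists of that group was 1.06, 1.14 and 1.19. The positions of skipped peaks within a gap are not known, so these counts do not place a peak in a member.

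The pooled asynchronous G1E list, called by the authors from the same libraries and also 100000 peaks long, had a peak in 59 members (4.15%). It had a peak in 1.9% of the 122041 merged regions without a peak in its 3 replicate lists, and in 2.66% (65 of 2445) of those at least 4 kb wide. With asynchronous G1E list 1, 2 or 3 left out of the rule, so that regions with a peak in that list could enter, the percentage was 34.6, 6.92 or 11.5. The pooled lists of the other groups had a peak in 1421, 1421 and 1422 members (99.9%). The 59 members with a pooled peak had a median width of 4974 bp, close to that of all members, and a median mean rank of 34786. For the 410 regions missing only from mitotic G1E-ER4, the pooled list of that group had a peak in 13.4%.

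The edge of the rule is set by rank 100000. Just inside it, the member at chr16:89788686-89792307 ranked 99911 in the first mitotic G1E list and 15286 to 68826 in the other 8, and the member at chr5:125305838-125311765 ranked 99904 in the third asynchronous G1E-ER4 list. Just outside it, a region at chr11:114386013-114389552 was left out by a peak at rank 99995 of the first asynchronous G1E list, and one at chr8:122821876-122823775 by a peak at rank 99887 of the same list. Regions with a peak in exactly 1 asynchronous G1E list numbered 1014 for the first list, 224 for the second and 460 for the third. Their median ranks in that list were 65959, 75320.5 and 72102. Of the 1014, 272 were on chromosome 4, and of the others none.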

How the data were processed

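DNase-seq of 12 libraries, 3 in each of 4 groups, was used as the peak lists deposited by the authors, with 4 lists pooled by group. Per the submitters' processing notes, reads were aligned with Bowtie to mm9. What called the peaks, and the version of Bowtie, is not given in the sources used here. Signals deposited by the authors, of unstated normalization, served only to rank peaks within a list, except in one alternative. Summit offsets and running peak numbers come from the same deposited lists, and that running numbers skip unlisted peaks was read from the values. Read depth is unknown, so no counting interval is given for a peak. No 2 lists were identical.

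Members and their comparisons were chosen with earlier results of these data known. Regions named were the 8 with the best mean rank, the 3 widest, the 3 narrowest, the 2 nearest the rank limit and up to 3 called members per contrast and direction. The counts by running number and its 10 to 200 kb window, the chain distance of 50 kb, the 20 kb and 4 kb limits and the common base were chosen after values were seen. Python 3.11.15, numpy 2.4.6, pandas 2.3.3, scipy 1.17.1, R 4.3.3 and limma 3.58.1 were used. limma was fitted with empirical Bayes to log2 rank over 20663 regions and 9 lists. The plan did not say whether the variance should follow the mean rank. A fit with such a trend was run first and its counts were seen before the constant-variance fit reported here was made, and both are given in the closing section. In the permutation tests the value printed for rank and width is the span of the group means, and the statistic is the sum of squares between groups. Both kinds of test were tested on simulated data. Deviations of same-numbered mitotic lists from their group means correlated at 0.391, 0.223 and 0.157 between lines. Between the stages of G1E-ER4 they correlated at 0.411, 0.0614 and 0.180. No correlation of differently numbered lists is given for reference, so whether the numbers pair lists is not settled. The main fit and the main permutation tests used no pairing, and the replicate block was an alternative. Positions count from 1.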

Additional observations from a re-analysis of the deposited data

How the results depend on the processing

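The number of members depended on how presence was defined. It was 814 with the 50000 highest peaks of each list, 292 with 300 bp around each summit (171 of them inside a member), 5158 when 2 of 3 lists per group sufficed, and 15097 with the 4 pooled lists. With 2 alternatives added after seeing the data it was 3445 without any list numbered 1 and 628 where a base was common to 9 lists. Leaving out 1 list gave 1472 to 2447, the highest without the first asynchronous G1E list. The percentage with a pooled asynchronous G1E peak was 3.83 to 34.6 when 1 list was left out, the highest without asynchronous G1E list 1, and 0.0 with the 50000 highest pooled peaks. An asynchronous G1E peak lay within 500 bp of 4.78% and within 5 kb of 34.7%. With 1 list left out, the summit excess ranged from 10.4 to 73.1 bp and the rank span from 0.42 to 0.92; both passed 0.05 only without the first asynchronous G1E-ER4 list. Under the replicate block the exact permutation p was 0.0556, 0.139 and 1 for summit distance, rank and width, and no call changed. The limma calls were unstable. With 1 list left out, members called higher in mitotic G1E-ER4 were 0 to 13 against asynchronous G1E-ER4 and 0 to 5 against mitotic G1E, and lower 0 to 3 and 0 to 0. The replicate block gave 6 higher and 1 lower (0.422% and 0.0703%, against 0.934% and 1.42% of all regions) against asynchronous G1E-ER4, and 2 higher against mitotic G1E. Deviations of same-numbered lists of the G1E-ER4 stages from their group means correlated at 0.411, 0.0614 and 0.180. Log2 signal gave 4 higher and 14 lower (0.281% and 0.984%, against 0.247% and 36% of all regions), and 0 higher against mitotic G1E. Mean rank over a region's peaks gave 0 and 0 higher. The variance trend, which the plan did not specify and which was run before the constant-variance fit, gave 0 and 2 higher. Only the 6 lists compared gave 0 higher against mitotic G1E. The cause of these shifts was not tested.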
